A study of Mus musculus with 12 samples.

Results

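The antigen processing and MHC genes described here are 35 genes fixed by name, 20 of the class I pathway and 15 of the class II pathway, among 30464 genes with a name on the array. Each gene was read from the probe set whose listed symbol was that gene alone, and the brightest on average over all arrays was taken where a gene had more than 1. A probe set of this kind was found for 30 of the 35 genes, 16 in class I and 14 in class II. The other 5 genes (H2-T23, H2-Q7, Psme2, Nlrc5 and Cd74) lay only on probe sets that list more than 1 gene, and these are given as shared probe sets. Of the 30 genes, 23 passed the filter on low signal, 15 in class I and 8 in class II, and entered the test. The other 7 (Cd1d1 in class I, and H2-Aa, H2-DMb1, H2-Oa, H2-Ob, Ciita and March1 in class II) lay below it.

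The RNA came from RAW264.7, a macrophage-like line from a mouse tumour, and was read on 12 arrays in 4 groups of 3. One group was kept in normal medium (replicates 2, 3 and 4). The other groups received 50% medium conditioned by PyMT-41C cells, and all cells were kept for 24 h: SCR PyMT-41C cells (SCR medium, replicates 1, 3 and 4), JMJD6-KO PyMT-41C cells (KO medium, replicates 1, 2 and 3), and SCR PyMT-41C cells with CSH added, which the labels give as a blockade of the ANXA-1 receptor (SCR medium with CSH, replicates 1, 2 and 4). JMJD6 was thus disrupted in the cells that made the medium and not in the cells that were measured, and the labels name no group with CSH in normal medium. RAW264.7 is 1 cell line of BALB/c origin, whose MHC alleles differ from those of the C57BL/6J reference, and whether probes of the polymorphic heavy chain genes bind its alleles less well was not tested. Nothing in the labels says that the 3 replicates were separate cultures, so the spread behind each p-value may be technical.

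Class I molecules pair a polymorphic heavy chain with beta-2 microglobulin and show peptides from the cytosol to CD8 T cells. The peptides are produced by the proteasome, whose catalytic subunits are replaced by immunoproteasome subunits under interferon-gamma, and are carried into the endoplasmic reticulum by the TAP transporter, loaded with the help of tapasin and trimmed by aminopeptidases. Class II molecules carry peptides made by endosomal proteases to CD4 T cells. They travel with the invariant chain, exchange its remnant for peptide with the help of H2-DM, and are transcribed only where the coactivator CIITA joins the RFX complex and other factors on the promoter. Macrophages as a rule hold class I constitutively and gain class II in response to interferon-gamma.

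Values are log2 RMA signals. A log2 difference of 1 is a doubling, levels of different genes cannot be set against each other because their probes differ, and in a culture measured in bulk fewer cells of a kind and less RNA per cell cannot be told apart. A gene was called higher or lower where its adjusted p in limma was below 0.05 after Benjamini-Hochberg adjustment over all 18119 tested genes. The arrays were close to each other in scale, with medians over all probe sets between 5.40 and 5.52. Their pairwise correlations over the tested genes lay between 0.9832 and 0.9988. Of 7 named macrophage markers, 6 passed the filter and Mertk lay between 5.02 and 5.16, below the array medians. Their summed linear signal ran from 393000 to 407000 in normal medium, 398000 to 417000 in SCR medium, 413000 to 430000 in KO medium and 396000 to 442000 with CSH. This sum follows mainly the brightest markers, Lyz2 and Cd68, at 17.7 and 17.19 in normal medium, and says little of the dimmer ones. In SCR against normal medium, Csf1r (the receptor for macrophage colony-stimulating factor) fell by 1.79 and Adgre1 (a macrophage surface receptor) fell by 1.45, whereas Itgam (CD11b) rose by 0.97 and Cd14 rose by 0.61. Markers of dendritic cells summed to 1580 to 2140 in normal medium, 885 to 1050 in SCR medium, 634 to 765 in KO medium and 938 to 1480 with CSH. The dendritic sum followed Itgax (CD11c), which fell by 1.27 in SCR medium, while 5 of the 8 markers lay below the array medians on every array. Of B cell, T and NK cell, and mammary epithelial markers, 3 of 7, 5 of 7 and 8 of 10 lay below the array medians on every array. Their sums in normal and SCR medium overlapped for all 3 lists. The mammary epithelial sum ran from 295 to 299 in normal medium, 294 to 315 in SCR medium, 302 to 307 in KO medium and 302 to 305 with CSH, so the KO and CSH arrays lay above the normal ones. The B cell sum ran from 245 to 248 in KO medium and 249 to 265 with CSH, also without overlap. The part of these marker differences in the results on MHC genes was not tested.

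The promoter sequences of the heavy chain genes, of the class II genes and of Tap1 with Psmb9 are shown because the members are known to be controlled together through short shared elements, and the signals of several neighbours could be compared. They come from the RefSeq promoter table (GRCm38.p6, the mm10 assembly). Entries of 300 bases, 250 before and 50 after a start site, were read for 27 of the 35 genes. Cd74 was not among the 27, so the class II promoter counts leave it out. Its absence does not say that the table holds no entry for it. Heavy chain stretches run from a kB motif to a second CCAAT box, with the motif and both CCAAT boxes (the first reads ATTGG) in capitals. The 2 that lay wholly before the annotated gene start were H2-D1 at chr17:35262923-35263045 and H2-Q4 at chr17:35379444-35379566, both on the plus strand.
H2-D1: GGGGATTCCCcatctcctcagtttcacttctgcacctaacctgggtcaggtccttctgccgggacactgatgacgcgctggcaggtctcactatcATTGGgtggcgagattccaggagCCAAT
H2-Q4: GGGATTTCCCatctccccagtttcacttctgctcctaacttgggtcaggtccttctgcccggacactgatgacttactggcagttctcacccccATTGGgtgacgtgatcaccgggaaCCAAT
These stretches were 84.7% identical when aligned, and the kB motif began 95 bases (H2-D1) or 94 bases (H2-Q4) before the first CCAAT box. The same arrangement, with 95 and 93 bases between them, was found for H2-K1 and H2-Q7. Identity among the 4 ranged from 83.1% to 87.8%. The kB motif, searched on both strands, was in 4 of 16 class I and 2 of 11 class II entries and in 1.76% of all 32817 promoters in the table. Here and below, member counts use only the first entry by position of each gene, whereas shares over the table use all entries. A match is a description of letters and not of binding.

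Class II promoters are shown as the 50 bases that end in a reverse CCAAT box (ATTGG). Capitals mark that box and the letters GCAAC, a stretch typical of the X box that the RFX complex binds. The GCAAC letters were chosen after these sequences were seen. H2-Aa (chr17:34287867-34287916) is read from the minus strand, and H2-Eb1 (chr17:34305763-34305812), H2-DMb1 (chr17:34153085-34153134), H2-Oa (chr17:34092291-34092340) and H2-Ob (chr17:34238803-34238852) from the plus strand.
H2-Aa: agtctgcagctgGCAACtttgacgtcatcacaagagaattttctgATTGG
H2-Eb1: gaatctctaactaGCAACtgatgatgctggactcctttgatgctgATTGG
H2-DMb1: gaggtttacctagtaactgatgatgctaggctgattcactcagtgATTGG
H2-Oa: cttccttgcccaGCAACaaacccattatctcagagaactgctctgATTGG
H2-Ob: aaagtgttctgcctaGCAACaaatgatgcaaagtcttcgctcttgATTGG
GCAAC preceded ATTGG by 33 bases in H2-Aa and H2-Oa, 32 in H2-Eb1 and 30 in H2-Ob, counted between their first letters, and 4 of the 5 stretches held it. These short letters are common: on both strands GCAAC was in 35.2% and CCAAT in 37.4% of all promoters. Among members, GCAAC was in 7 of 16 class I and 6 of 11 class II first entries, and CCAAT in 10 of 16 and 6 of 11. Later entries, which were not counted, held CCAAT in H2-DMa, Lgmn and March1 and GCAAC in Lgmn and March1.

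Tap1 (chr17:34187556-34197225) and Psmb9 (chr17:34182030-34187330) are transcribed away from each other, and the 225 bases between their annotated starts are chr17:34187331-34187555, shown on the plus strand, from the start of Psmb9 towards that of Tap1. Capitals mark a CCAAT box and GCAAC.
Tap1 and Psmb9: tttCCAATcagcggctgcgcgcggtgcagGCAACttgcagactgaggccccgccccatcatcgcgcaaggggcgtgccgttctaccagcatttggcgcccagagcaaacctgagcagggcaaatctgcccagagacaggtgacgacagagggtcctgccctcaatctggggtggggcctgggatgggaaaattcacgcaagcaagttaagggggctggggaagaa
No match to the interferon-stimulated response element or the gamma-activated site, as searched on both strands, was found in the entries of Tap1 or Psmb9. That says only that the letters searched are not in the window. Across the table the first was in 3.43% and the second in 8.29% of promoters, with 4 of 16 and 2 of 16 class I entries, and 1 of 11 and 1 of 11 class II entries. The response element letters were in the entries of B2m, Erap1, Psme1 and H2-T23 in class I and of Ctss in class II. Each element was searched as a single fixed pattern. An entry without a match, those of the classical heavy chains included, may therefore hold another form of the element.

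In SCR medium against normal medium, tapasin and 3 proteasome genes were lower and the tapasin relative Tapbpl was higher. No heavy chain among the tested members passed, whereas H2-T24 and H2-T10, heavy chains outside the members, fell by 0.93 and 0.56. Of the 15 class I members tested, 1 was higher (Tapbpl) and 4 were lower (Tapbp, Psmb9, Psme1 and Psmb8). Over all tested genes 35.2% passed, 19.3% higher and 15.8% lower, so the share of class I genes that passed, 33.3%, was near that of the array. For 6 of the 15 no SCR array lay within the range of normal medium, or the reverse, beside 43.3% of all tested genes. The median class I difference was -0.13, beside 0.017 over all tested genes.

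**Figure D1:**
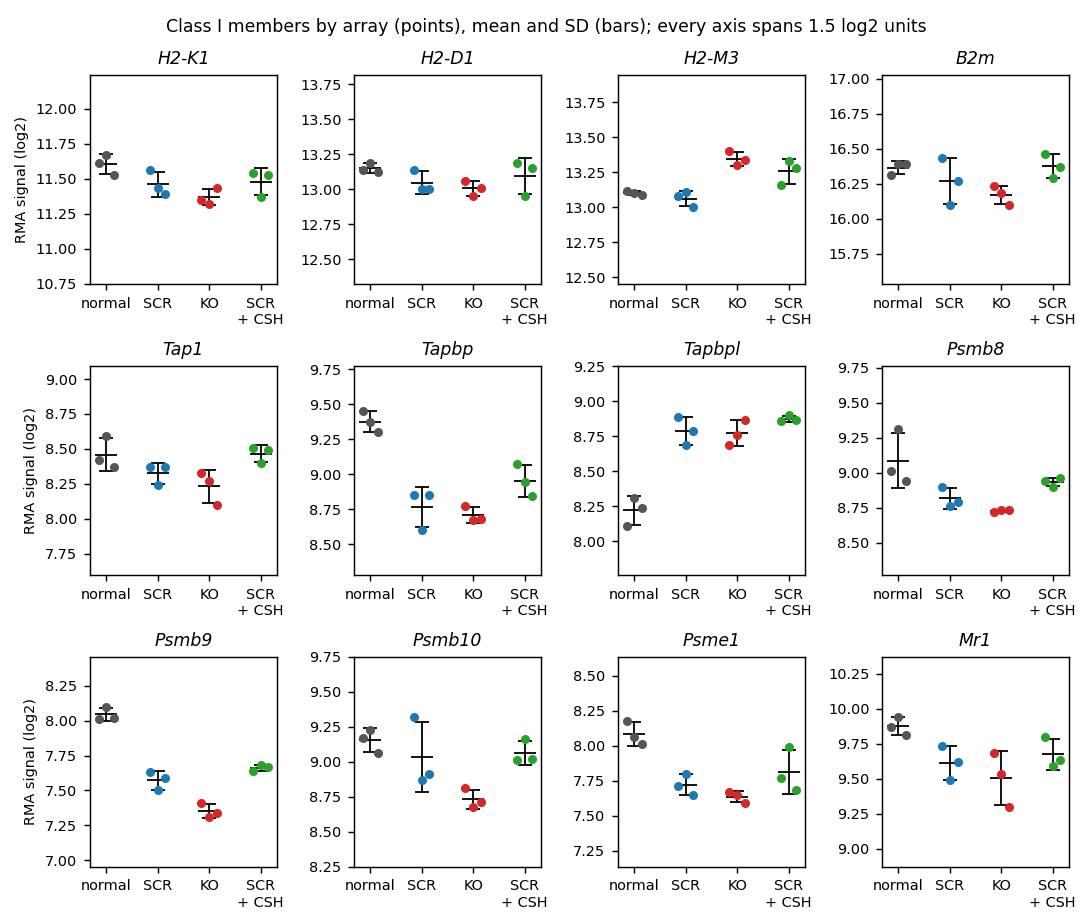
Log2 RMA signal of 12 class I genes (y axis, each spanning 1.5 log2 units) in normal, SCR and KO medium and SCR medium with CSH (x axis), with 1 point per array and bars for the mean and SD of 3 arrays. Tapbp and Psmb9 sit lower, and Tapbpl higher, on every array of the conditioned media than in normal medium, while the arrays of H2-D1 overlap between normal and SCR medium.

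The classical heavy chains, which present peptide to CD8 T cells, were well above the array medians in every group. H2-K1 (chr17:33996012-34000619) read 11.61, 11.67 and 11.53 in normal medium, 11.56, 11.43 and 11.39 in SCR medium, 11.35, 11.32 and 11.43 in KO medium, and 11.54, 11.37 and 11.53 with CSH. H2-D1 (chr17:35263094-35267497) read 13.14, 13.19 and 13.12, then 13.14, 13.0 and 13.0, then 13.06, 12.95 and 13.01, then 13.19, 12.95 and 13.15, in the same order of groups. SCR and normal medium overlapped for both genes. The difference was -0.14 for H2-K1 (95% interval -0.29 to 0.01, adjusted p = 0.137, and 0.013 at the lowest over the alternatives, passing under quantile normalization and array weights) and -0.10 for H2-D1 (-0.25 to 0.05, adjusted p = 0.291). B2m, the light chain, read 16.31, 16.39 and 16.39 in normal medium, 16.43, 16.1 and 16.27 in SCR medium, 16.23, 16.18 and 16.1 in KO medium, and 16.46, 16.29 and 16.37 with CSH. Its SCR arrays lay on both sides of the normal ones, with a difference of -0.10 (-0.26 to 0.06).

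Of the non-classical and class I-like heavy chains, H2-Q4 averaged 8.8 in normal and 8.67 in SCR medium and H2-M3, which presents formylated peptides, 13.1 and 13.06. Neither passed, with adjusted p = 0.163 and 0.658, but H2-Q4 passed with array weights (adjusted p = 0.0105). H2-Q4 has near-identical neighbours, so its signal may hold theirs. Mr1, which presents metabolites to MAIT cells, averaged 9.87 ± 0.07 in normal medium and 9.61 ± 0.12 in SCR medium (SD, n = 3). Its groups did not overlap, yet the difference of -0.26 missed the threshold (adjusted p = 0.0546). It passed under a stricter filter, quantile normalization, array weights and the 6 arrays alone, and without SCR replicate 1, KO replicate 1 or KO replicate 3 (adjusted p from 0.0271 to 0.172 over single arrays left out). Cd1d1, a lipid-presenting molecule, stayed between 4.75 and 5.02 on all 12 arrays, below the array medians.

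Among loading genes, tapasin and its relative moved in opposite directions. Tapbp, or tapasin, bridges class I to the TAP transporter (chr17:33919478-33929290). It read 9.45, 9.37 and 9.3 in normal medium, 8.85, 8.6 and 8.85 in SCR medium, 8.77, 8.67 and 8.68 in KO medium, and 9.07, 8.94 and 8.84 with CSH. No array in a conditioned medium reached the lowest one in normal medium. Tapbp fell by 0.61 in SCR medium (SE 0.08, 1.52-fold lower, adjusted p = 8.17e-05). Tapbpl, whose product TAPBPR edits class I peptides outside the loading complex (chr6:125223927-125231860), read 8.11, 8.31 and 8.24 in normal medium and 8.89, 8.69 and 8.79 in SCR medium. It read 8.69, 8.76 and 8.87 in KO medium and 8.86, 8.9 and 8.87 with CSH, above every array of normal medium. Tapbpl rose by 0.57 (SE 0.07, 1.48-fold, adjusted p = 4.83e-05).

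Tap1, a chain of the peptide transporter, read 8.42, 8.59 and 8.37 in normal medium, 8.37, 8.24 and 8.37 in SCR medium, 8.33, 8.27 and 8.1 in KO medium, and 8.51, 8.4 and 8.49 with CSH. The normal and SCR arrays touched at 8.37, with a difference of -0.13 (-0.30 to 0.03, adjusted p = 0.216). Its partner Tap2 averaged 6.95 in normal and 7.01 in SCR medium (adjusted p = 0.549). Erap1, the aminopeptidase that trims peptides in the endoplasmic reticulum, differed by -0.05 (-0.21 to 0.11, adjusted p = 0.644).

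The subunits that tailor the proteasome to antigen processing showed 2 of the 3 immunoproteasome genes lower. Psmb9, next to Tap1, encodes a catalytic subunit of the immunoproteasome. It read 8.01, 8.1 and 8.02 in normal medium, 7.63, 7.5 and 7.59 in SCR medium, 7.41, 7.31 and 7.34 in KO medium, and 7.64, 7.68 and 7.67 with CSH. The 4 groups fell into an order without overlap, from normal medium down through CSH and SCR to KO, but CSH and SCR nearly touched, at 7.64 and 7.63. By limma, neither CSH against SCR medium (adjusted p = 0.867) nor KO against SCR medium (adjusted p = 0.215) passed. In these comparisons 8.59% and 9.37% of all tested genes did not overlap. Psmb9 fell by 0.47 in SCR medium (SE 0.05, 1.39-fold lower, adjusted p = 2.54e-05). Tap1, which shares the 225 bases with it, did not pass in the same comparison; the difference between the 2 genes was not tested. Psmb8, a second catalytic subunit, read 9.01, 9.31 and 8.94 in normal medium, 8.9, 8.76 and 8.79 in SCR medium, 8.72, 8.73 and 8.73 in KO medium, and 8.94, 8.9 and 8.96 with CSH. All SCR arrays lay below those in normal medium, and Psmb8 fell by 0.27 (adjusted p = 0.0224). This call was lost without normal medium replicate 3, SCR replicate 3 or SCR replicate 4, where the adjusted p rose to as much as 0.0769. It was also lost with the 6 arrays alone (adjusted p = 0.0731). Psmb10, the remaining immunoproteasome subunit, averaged 9.15 in normal and 9.03 in SCR medium (difference -0.12, adjusted p = 0.428). Without SCR replicate 1 the difference was -0.26 and passed (adjusted p = 0.0178), and with array weights it was -0.22 (adjusted p = 0.045). Psme1, a subunit of the proteasome activator, fell by 0.36 (SE 0.08, adjusted p = 0.00293).

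The class II pathway held 5 lower genes of 8 tested in SCR against normal medium, and none higher. These were Rfx5, Lgmn, H2-DMa, Ctss and Ifi30, in a comparison where 15.8% of all tested genes were lower. The median class II difference was -0.29. Of the presenting chains, H2-Aa lay below the array medians, H2-Eb1 around them and H2-Ab1 above them, and neither of the tested chains passed.

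**Figure D2:**
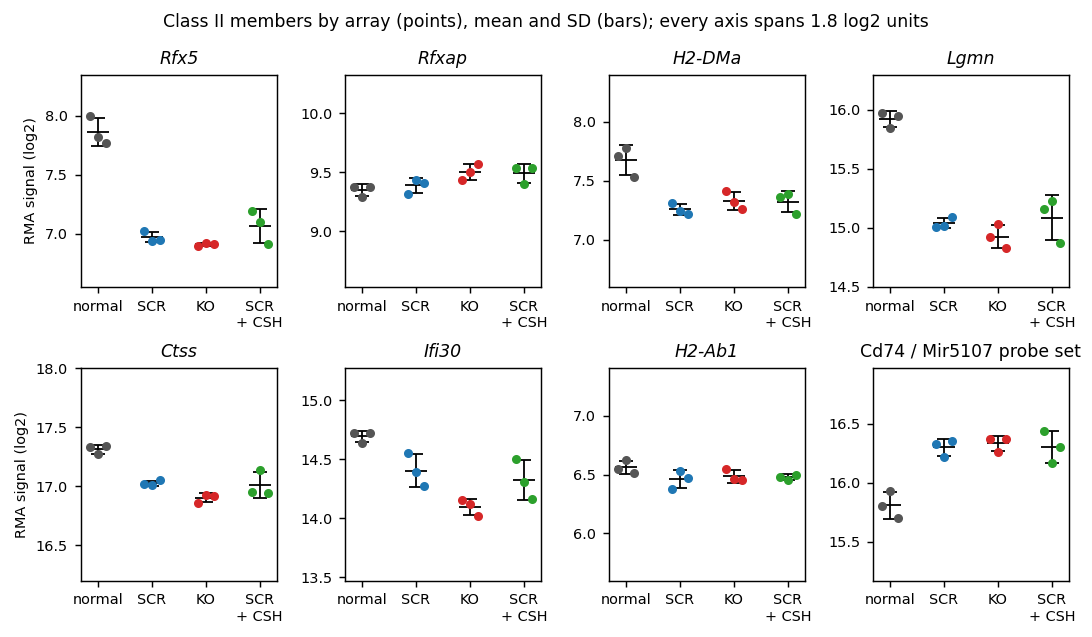
Log2 RMA signal of 7 class II genes and of the probe set shared by Cd74 and Mir5107 (y axis, each spanning 1.8 log2 units) in the 4 media (x axis), with 1 point per array and bars for the mean and SD of 3 arrays. Rfx5 and Lgmn sit about 0.9 lower in SCR than in normal medium, and the shared Cd74 probe set sits 0.49 higher.

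Rfx5 and Lgmn had the largest differences among tested class II genes in each of the 3 conditioned media against normal medium, and differed from each other by less than their SE. Rfx5 is the DNA-binding subunit of the RFX complex (chr3:94950689-94961561). It read 8.0, 7.82 and 7.77 in normal medium, 7.02, 6.94 and 6.95 in SCR medium, 6.9, 6.92 and 6.91 in KO medium, and 7.19, 7.1 and 6.91 with CSH. All 9 arrays in conditioned medium lay below all 3 in normal medium. Rfx5 fell by 0.89 (SE 0.08, 1.86-fold lower, adjusted p = 2.07e-06). Its partner Rfxap, another RFX subunit, averaged 9.35 in normal and 9.39 in SCR medium, a difference of 0.04 (-0.10 to 0.18, adjusted p = 0.695). The coactivator Ciita, which recruits transcription to class II promoters, stayed between 4.91 and 5.06 on all 12 arrays, below the array medians.

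The 3 endosomal enzymes among the tested class II members, all far above the array medians, fell, whereas the cathepsin Ctsl, outside the members, rose by 0.81. Lgmn, an asparaginyl endopeptidase (chr12:102394082-102439728), read 15.97, 15.85 and 15.95 in normal medium, 15.01, 15.02 and 15.09 in SCR medium, 14.92, 15.03 and 14.83 in KO medium, and 15.16, 15.23 and 14.87 with CSH. Every array in conditioned medium lay below every array in normal medium, and Lgmn fell by 0.88 (SE 0.08, 1.84-fold lower, adjusted p = 4.23e-06). Ctss, the cathepsin that cleaves the invariant chain, fell by 0.29 (SE 0.05, adjusted p = 0.000711), from 17.31 ± 0.04 to 17.03 ± 0.02 (SD, n = 3). Ifi30, the lysosomal thiol reductase GILT, read 14.72, 14.64 and 14.72 in normal medium, 14.55, 14.39 and 14.27 in SCR medium, 14.15, 14.12 and 14.02 in KO medium, and 14.5, 14.31 and 14.16 with CSH. Its SCR arrays were lower than the normal ones without overlap. Ifi30 fell by 0.29 (adjusted p = 0.0189), a call lost without normal medium replicate 2, normal medium replicate 4 or SCR replicate 4 (adjusted p up to 0.0885).

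H2-DMa, a chain of the peptide exchange factor H2-DM, fell by 0.42 (SE 0.07, adjusted p = 0.000653), from 7.67 ± 0.13 to 7.26 ± 0.05 (SD, n = 3). Its partner chain H2-DMb1 lay between 4.72 and 4.97 on all arrays, below the medians, and was not tested.

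The class II chains form the molecule that shows peptide to CD4 T cells. H2-Aa (chr17:34282744-34287823) ran from 4.66 to 4.86 over the 12 arrays, below all array medians. H2-Ab1 (chr17:34263227-34269418) read 6.55, 6.62 and 6.51 in normal medium, 6.38, 6.53 and 6.47 in SCR medium, 6.55, 6.46 and 6.45 in KO medium, and 6.48, 6.45 and 6.5 with CSH. H2-Eb1 read 5.42, 5.6 and 5.51, then 5.6, 5.62 and 5.4, then 5.48, 5.4 and 5.45, then 5.57, 5.53 and 5.6. For both genes the groups overlapped in SCR against normal medium (differences -0.10, adjusted p = 0.211, and 0.03, adjusted p = 0.796). The H2-O chains, which restrain H2-DM, ran from 4.65 to 4.93 (H2-Oa) and 5.13 to 5.4 (H2-Ob), and March1, a ubiquitin ligase that lowers surface class II, from 4.95 to 5.15. H2-Oa, below the filter, ran from 4.85 to 4.93 in normal medium and 4.66 to 4.77 in SCR medium. It ran from 4.72 to 4.83 in KO medium and 4.65 to 4.72 with CSH. H2-Eb1 lay around the array medians and passed the filter, and H2-Ob did not pass it.

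**Figure D3:**
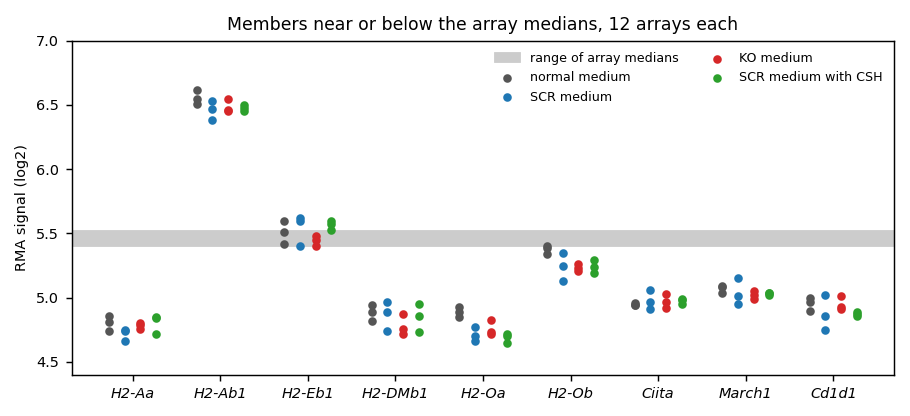
Log2 RMA signal (y axis) of 9 members near or below the array medians (x axis), with 1 point per array coloured by medium and a grey band for the range of the 12 array medians, 5.40 to 5.52. H2-Aa, H2-DMb1, H2-Oa, Ciita, March1 and Cd1d1 lie below the band on every array, H2-Ob at or below it, H2-Eb1 around it and H2-Ab1 above it.

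The 5 members on shared probe sets were tested with all 34165 probe sets that passed the same filter, each on its own, an analysis added after the data were seen. Their signal cannot be given to either gene. The probe set listing Cd74, the invariant chain, and Mir5107, a microRNA, was bright. It read 15.8, 15.93 and 15.7 in normal medium, 16.33, 16.22 and 16.35 in SCR medium, 16.37, 16.26 and 16.37 in KO medium, and 16.44, 16.17 and 16.3 with CSH. All conditioned arrays lay above the normal ones. It was 0.49 higher in SCR medium (SE 0.08, adjusted p = 0.000473), opposite in sign to the 5 class II genes that fell.

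The probe sets of Psme2, the other chain of the proteasome activator, are shared with its near-copy Psme2b and disagreed. The one named for another chromosome than that of Psme2, which lists Psme2b first, was 0.84 lower in SCR medium (SE 0.11, adjusted p = 0.000121). The one named for the chromosome of Psme2 (chr14:55587440-55591101) differed by 0.09 (-0.05 to 0.23, adjusted p = 0.375). Of the 2 probe sets that list H2-Q7, that with H2-Q9 was 0.25 lower (adjusted p = 0.0388), and that with H2-Q5 differed by -0.33 without passing (adjusted p = 0.0678). The probe set of H2-T23 and the pseudogene H2-T-ps differed by -0.18 (adjusted p = 0.0651). That of Nlrc5, the class I coactivator, and Mir7072 read 7.53, 7.66 and 7.6 in normal medium, 7.86, 7.65 and 7.79 in SCR medium, 7.94, 7.8 and 7.74 in KO medium, and 7.89, 7.78 and 7.75 with CSH. Its normal and SCR arrays overlapped, with a difference of 0.17 (adjusted p = 0.152).

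The question of whether the JMJD6 status of the medium's source changed these genes is addressed by KO against SCR medium, where no member passed. By limma, 0 of 15 class I and 0 of 8 class II genes had an adjusted p below 0.05, in a comparison where 0.27% of all tested genes did (0.254% higher, 0.0166% lower). At an unadjusted p below 0.05 there were 4 class I and 2 class II genes, beside 1078 of 18119 over the array. With array weights in the same tool, 2 class I genes passed, H2-M3 higher (adjusted p = 0.00295) and Psmb9 lower (adjusted p = 0.013), in a fit in which SCR replicate 4 alone had a weight of 6.14.

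The smallest adjusted p belonged to H2-M3, whose arrays are given because of that value. H2-M3 (chr17:37270234-37274485) read 13.12, 13.1 and 13.09 in normal medium, 13.08, 13.11 and 13.0 in SCR medium, 13.4, 13.3 and 13.34 in KO medium, and 13.16, 13.33 and 13.28 with CSH. The KO arrays lay above all SCR and all normal arrays. The difference from SCR medium was 0.28 (0.16 to 0.41, adjusted p = 0.0886). Psmb9 was lower in KO than in SCR medium on all arrays, with a difference of -0.22 (-0.34 to -0.10, adjusted p = 0.215). In 9.37% of all tested genes the KO and SCR arrays did not overlap, and 4 class I and 3 class II genes were among them. Psmb10 differed by -0.30 (-0.53 to -0.07, adjusted p = 0.593), and its SCR replicate 1 at 9.32 stood above replicates 3 and 4 at 8.87 and 8.91. Among class II genes Ifi30 differed most, by -0.31 (-0.49 to -0.12, adjusted p = 0.34), followed by Ctss at -0.12 (-0.23 to -0.01, adjusted p = 0.755). For Rfx5 and Lgmn the differences were -0.06 (-0.23 to 0.11) and -0.11 (-0.29 to 0.07). The median difference was -0.09 in class I and -0.08 in class II, beside -0.003 over all tested genes.

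**Figure D4:**
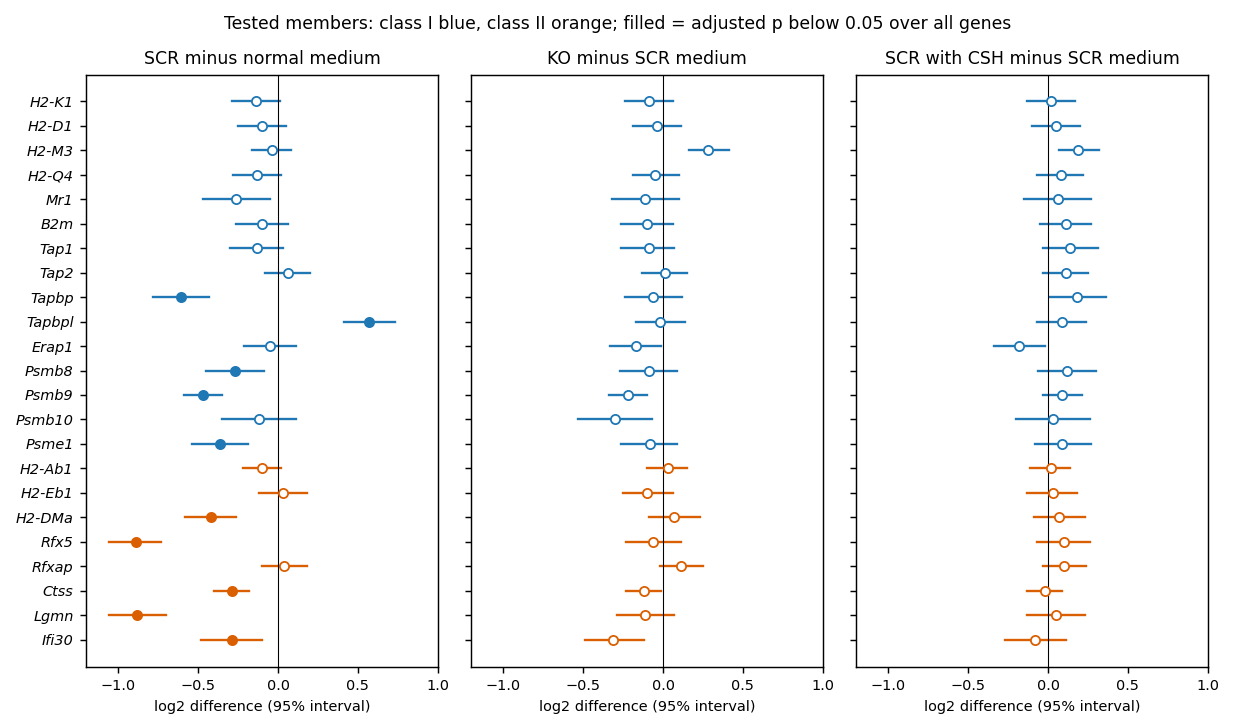
Log2 differences (x axis) of the 23 tested members (y axis) for SCR minus normal medium, KO minus SCR medium and SCR medium with CSH minus SCR medium, with points for estimates, bars for 95% intervals and filled points for an adjusted p below 0.05. Filled points appear in the first comparison only, with 5 class I and 5 class II genes.

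Whether the annexin A1 receptor blocker changed the response to SCR medium is addressed by SCR medium with CSH against SCR medium. By limma no member passed, and 0.0% of all tested genes did. At an unadjusted p below 0.05 there were 3 class I genes (H2-M3, Erap1 and Tapbp) and 0 class II genes, beside 1131 of 18119 over the array. With array weights 0 members passed. The smallest adjusted p was 0.663 in class I and 0.867 in class II. The arrays did not overlap for 4 class I and 0 class II genes, beside 8.59% of all tested genes. H2-M3 differed by 0.19 (0.07 to 0.32), Tapbp by 0.18 (0.01 to 0.36) and Erap1 by -0.18 (-0.34 to -0.02). Of 15 class I genes, 14 had a positive estimate with a median of 0.09, beside a median of 0.01 over all tested genes, and 6 of 8 class II estimates were positive with a median of 0.04. The intervals for Rfx5 (-0.07 to 0.26) and Lgmn (-0.13 to 0.23) lay below 0.89 and 0.88, the sizes of their falls from normal medium. KO and CSH share the SCR arrays in these comparisons, so their estimates are not independent.

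Each of the remaining conditioned media was also set against normal medium, with the same 3 normal arrays as in the comparison above. In KO medium, 11 of 15 class I genes passed, 2 higher and 9 lower, and 5 of 8 class II genes were lower, where 39.1% of all tested genes passed (21.4% higher, 17.6% lower). The arrays did not overlap for 14 class I and 6 class II genes, beside 49.8% of all tested genes. Tapbpl rose by 0.55 and H2-M3 by 0.24 (adjusted p = 0.00418). Psmb9 fell by 0.69 (SE 0.05, 1.61-fold lower, adjusted p = 6.94e-07), Tapbp by 0.67, Psme1 by 0.45, Psmb10 by 0.42, Mr1 by 0.37 and Psmb8 by 0.36. Smaller falls in H2-K1 (-0.24, adjusted p = 0.0157), Tap1 (-0.23, adjusted p = 0.0329) and Erap1 (-0.22, adjusted p = 0.0307) each depended on single arrays. H2-K1 no longer passed without normal medium replicate 3 or KO replicates 1 or 2 (adjusted p up to 0.0626). Tap1 did not pass without normal medium replicates 2 or 3 or KO replicates 2 or 3 (up to 0.145), and Erap1 without normal medium replicate 2 or KO replicates 1 or 3 (up to 0.138). Median centring also ended the calls of Tap1 and Erap1, and that of Tap1 was lost without a filter and with the 6 arrays alone. B2m and H2-Q4 missed the threshold at adjusted p = 0.0546 and 0.0537.

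In class II, KO against normal medium gave falls of 1.00 in Lgmn (SE 0.08, 2.0-fold lower, adjusted p = 1.06e-06), 0.95 in Rfx5 and 0.60 in Ifi30 (SE 0.09, adjusted p = 0.00011). Ctss fell by 0.41 and H2-DMa by 0.34. The Ifi30 call held with each array left out in turn. The Cd74 and Mir5107 probe set was 0.52 higher, and that of Nlrc5 and Mir7072 was 0.23 higher (adjusted p = 0.0453).

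SCR medium with CSH against normal medium gave 5 class I genes, Tapbpl higher by 0.66 and Tapbp, Psmb9, Psme1 and Erap1 lower, and the same 5 class II genes lower, where 35.8% of all tested genes passed (20.9% higher, 14.9% lower). The arrays did not overlap for 8 class I and 7 class II genes, beside 46.8% of all tested genes. Tapbp fell by 0.42, Psmb9 by 0.38, Psme1 by 0.27 (adjusted p = 0.0174) and Erap1 by 0.24 (adjusted p = 0.0236). The Psme1 call was lost without normal medium replicate 2 or CSH replicates 1 or 4 (adjusted p up to 0.081) and that of Erap1 without normal medium replicate 2 or CSH replicate 2 (up to 0.11). With the 6 arrays alone the Psme1 call was lost too (adjusted p = 0.0502). Without normal medium replicate 2 the class I count was 3. Lgmn fell by 0.84, Rfx5 by 0.80, Ifi30 by 0.37, H2-DMa by 0.35 and Ctss by 0.30.

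KO medium against SCR medium with CSH compares media that differ both in the cells that made them and in CSH. A single member passed, Psmb9, which fell by 0.31 in KO medium (SE 0.05, 1.24-fold lower, adjusted p = 0.0146), where 1.9% of all tested genes passed (1.21% higher, 0.695% lower). The arrays did not overlap for 8 class I and 3 class II genes, beside 21.8% of all tested genes. For Psmb9 the KO arrays, 7.41, 7.31 and 7.34, lay below the CSH arrays, 7.64, 7.68 and 7.67. The call was lost without KO replicate 2, KO replicate 3 or CSH replicate 2 (adjusted p up to 0.0712). It was also lost when arrays were centred on their medians and when the replicate number entered the fit as a block. No class II gene passed, and the smallest class II adjusted p was 0.228, for Ifi30 (-0.23, interval -0.41 to -0.04). By an unadjusted p below 0.05 there were 7 class I and 1 class II genes, beside 2849 of 18119 over the array.

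Other genes of the same pathways were read from lists that also hold chaperones, constitutive proteasome subunits, other cathepsins and interferon-gamma signalling. Of 24 tested other class I genes, 3 were higher and 6 lower in SCR against normal medium, where 19.3% of all tested genes were higher and 15.8% lower. Sec22b, a vesicle fusion protein with a role in cross-presentation, rose by 0.45, Calr, the chaperone calreticulin, by 0.43, and Psme3, a nuclear proteasome activator subunit, by 0.35. H2-T24 and H2-T10, non-classical heavy chains with close relatives that may share their probes, fell by 0.93 and 0.56. Wdfy4, required for cross-presentation in dendritic cells, fell by 0.63 and Blmh, a cytosolic peptidase, by 0.46. Psmb6, the constitutive subunit that Psmb9 replaces, is named after its values were seen and fell by 0.44 (SE 0.06, adjusted p = 0.000113), close to the 0.47 of Psmb9. Psmb7, the subunit that Psmb10 replaces, is named likewise and differed by 0.24 (adjusted p = 0.0748).

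**Figure D5:**
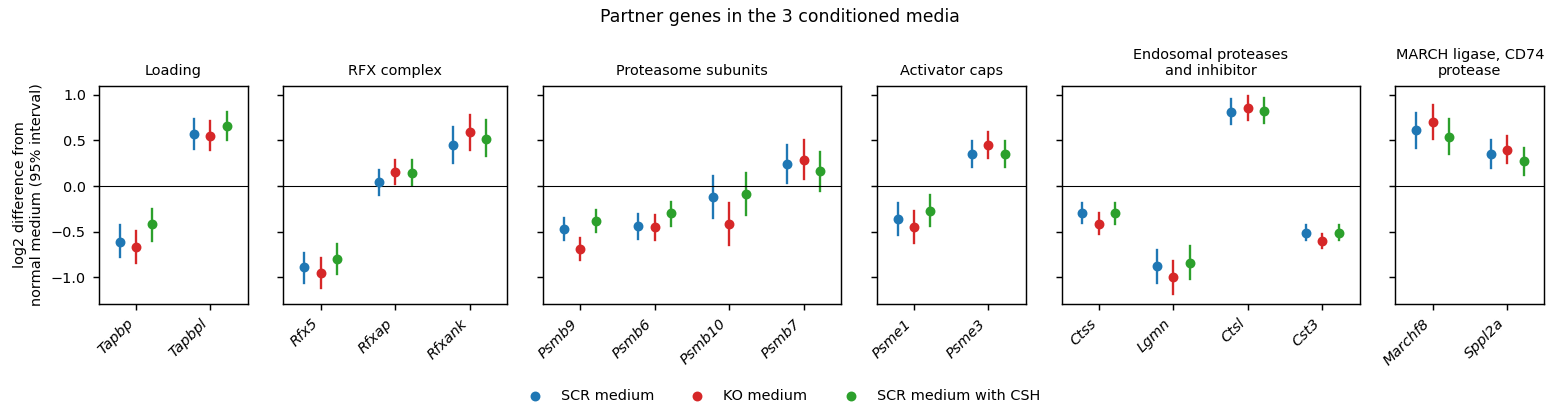
Log2 difference from normal medium (y axis; bars are 95% intervals) in SCR medium, KO medium and SCR medium with CSH for partner genes grouped by function (x axis), all 3 against the same normal arrays. Tapbp and Tapbpl, Rfx5 and Rfxank, and Ctss or Lgmn and Ctsl lie on opposite sides of 0 in each medium, while Psmb9 and Psmb6 lie on the same side.

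Of 17 tested other class II genes, 6 were higher and 4 lower, beside the same 19.3% and 15.8% of all tested genes. Ctsl, another cathepsin that can cleave the invariant chain, rose by 0.81 (SE 0.06, adjusted p = 8.61e-07), from 13.3 ± 0.08 to 14.11 ± 0.05 (SD, n = 3), opposite to Ctss and Lgmn. Cst3, cystatin C, an inhibitor of cysteine cathepsins, fell by 0.51 (SE 0.04, adjusted p = 6.5e-07). Marchf8, a ubiquitin ligase related to March1, rose by 0.61, Rfxank, the remaining RFX subunit, by 0.45 (SE 0.09, adjusted p = 0.00169), and Sppl2a, the protease that degrades the invariant chain's end fragment, by 0.35. Ctsh, Ctsa and Creb1 fell by 0.36, 0.33 and 0.27. The 3 subunits of the RFX complex therefore stood at -0.89 (Rfx5), 0.04 (Rfxap) and 0.45 (Rfxank) against normal medium.

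In the interferon-gamma list, 5 of 12 tested genes were higher and 3 lower, again beside 19.3% and 15.8%. Jak2, a kinase of the receptor, rose by 1.09 and Gbp7, a guanylate-binding protein, by 1.07. Gbp4 rose by 0.40 and Jak1, the receptor's other kinase, by 0.38, whereas the receptor chain Ifngr1 fell by 0.55, Irf8 by 0.46 and Irf2 by 0.38. Irf1, an induced factor of this pathway, differed by -0.04 (adjusted p = 0.592). Ifng itself lay between 3.98 and 4.21 on all arrays, below the medians. Gbp2, Gbp3, Iigp1, Socs1, Cxcl9 and Cxcl10, of the same list, also lay below the medians on all arrays and were not tested. In KO against SCR medium and in SCR medium with CSH against SCR medium, 0 genes of the 3 lists passed. In KO medium against SCR medium with CSH, Psme4, a proteasome activator, and Jak2 were higher by 0.26 (adjusted p = 0.0388) and 0.47 (adjusted p = 0.0416).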

How the data were processed

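RNA of RAW264.7 cells from 4 media, 3 samples each, was hybridised to 1 Affymetrix array per sample. The values are log2 signals that the authors made with RMA in Affymetrix Expression Console on mm10, per the submitters' processing notes, with versions not given in the sources used here. Because RMA brings all arrays to the same scale, a change in total RNA per cell would not be seen, and differences of dim genes are compressed. The number of arrays limits the precision. Of 65528 probe sets, 31018 had 1 gene symbol, 1478 several and 33032 no listed gene, after symbols were updated through the RefSeq table of GRCm38.p6. The brightest probe set on average stood for each of the 439 genes that had more than 1.

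Genes above the array median on at least 3 arrays (18119 of 30464) were fitted with limma 3.58.1 in R 4.3.3 (group only, all 12 arrays, 8 residual degrees of freedom, eBayes with an intensity trend). P-values were adjusted by Benjamini-Hochberg over all of them, two-sided, and the threshold was 0.05. The members, lists and tests were chosen with earlier results of these data known. Array values are given for members that passed with a log2 difference of at least 0.5 in any comparison and for 13 genes fixed by name; of each list, up to 4 rises and 4 falls are named, by size. Alternatives were other filters, scalings, probe set summaries, weights, variance models, subsets of arrays and a replicate block. The fit was tested on simulated data. Figures were drawn with matplotlib 3.10.9. Sequences were read from the RefSeq promoter table.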

Additional observations from a re-analysis of the deposited data

How the results depend on the processing

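Counts of members that passed kept within 1.5 times their reported value under the filters, quantile normalization, the mean of all probe sets, no intensity trend and the 6 arrays of each comparison alone, with no change of direction in any value that passed. With array weights, 9 class I genes passed in SCR against normal medium (reported 5) and 2 in KO against SCR medium (reported 0). In KO medium against SCR medium with CSH, 0 class I genes passed after median centring (reported 1), where the share of higher calls over all genes moved from 63.5% of 345 to 77.9% of 154. With single arrays left out, class I counts ran from 0 to 2 in that comparison, from 3 to 7 in SCR medium with CSH against normal medium and from 4 to 7 in SCR against normal medium. The cause of these shifts was not tested.

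With the replicate number as a block, 0 class I genes passed in KO medium against SCR medium with CSH, and 6 class I genes passed in SCR against normal medium, Mr1 among them. Deviations of the 12 same-numbered pairs correlated between -0.065 and 0.295, over 0.1 in 5 pairs, with a median of 0.069. Pairs with different numbers ran from -0.234 to 0.211, with a median of -0.046. SCR replicate 1 with CSH replicate 1 (0.295) and KO replicate 2 with CSH replicate 2 (0.25) lay above that range. The main fit did not use the numbers to pair samples, and whether same-numbered samples share a batch was not tested. Differences of members near or below the array medians are compressed in these signals, and the smallest difference that they resolve was not measured. Without a filter, 6 of 14 class II members passed in SCR against normal medium, all lower (reported 5 of 8).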
